A study of Mus musculus with 4 samples.

Results

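The genes described here are 7 proteins that fold other proteins in the endoplasmic reticulum (ER), Hspa5, Hsp90b1, Calr, Canx, Pdia3, Pdia4 and Pdia6, and 3 transcription factors of the stress responses linked to it, Atf4, Ddit3 and Xbp1. They were taken by symbol from a list of 10 that uses no threshold on their values, although the list was drawn up with earlier results of these data known, and each of the 10 matched 1 of the 16449 genes in the count table. The table came from Nanopore long-read sequencing of poly(A)-enriched RNA from the dorsal and medial palliums, the wall of the embryonic forebrain that forms neocortex and hippocampus, micro-dissected from mouse embryos at E11.5. It held 2 libraries labelled WT and 2 labelled Tut1_KO. Tut1 encodes an enzyme that adds uridines to the end of U6 snRNA, a spliceosomal RNA, and the comparison asks which RNAs differ in abundance when it is deleted in neural stem cells. The knockout genotype is Tut1 f/f;Emx1-Cre, in which exon 2 lies between loxP sites and the Emx1-driven recombinase acts in cortical progenitors and their progeny but not in blood vessels, blood or microglia. The controls are given in the labels only as WT. In the study this name covers Tut1 f/+ and Tut1 f/f animals without Cre, and its sequencing statistics list the control libraries as homozygous for the floxed allele. How many embryos entered a library was not stated, so p-values measure the spread between these samples, which may be technical.

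Proteins that enter the ER are helped to fold by chaperones such as HSPA5 and HSP90B1, and glycoproteins by the lectin chaperones calreticulin and calnexin. Protein disulfide isomerases form their disulfide bonds. When unfolded proteins collect in the ER, the sensors IRE1, PERK and ATF6 start the unfolded protein response: IRE1 splices Xbp1 mRNA, PERK slows translation by phosphorylating eIF2alpha and so favours translation of ATF4, and released ATF6 raises chaperone transcription. ATF4 raises amino acid synthesis and uptake genes and Ddit3, whose product CHOP promotes cell death when stress persists. Counts per gene hold mRNA abundance alone: neither the splicing of Xbp1 nor the translation of Atf4 can be read from them.

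Promoters of ER chaperone genes are known for the ER stress response element (ERSE), a CCAAT box and a CCACG block set 9 bases apart, to which ATF6 and XBP1 bind together with NF-Y. RefSeq promoter windows (build GRCm38.p6), from 250 bases before to 50 bases after each transcript start, were searched on both strands for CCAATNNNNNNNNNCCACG. All 10 genes had a window, and the motif was present in 5 of them, Hspa5, Hsp90b1, Calr, Canx and Pdia6, against 37 of 27025 genes with a window (0.137%). The matches are printed as a description of the 5 promoters that hold them. The element is known from promoters of ER chaperone genes, so finding it among genes chosen as ER chaperones is not an independent result. Each is read 5′ to 3′ on the strand of its gene, with the motif in capitals and 5 flanking bases in lower case.
Hspa5, chr2:34772020-34772048, plus strand: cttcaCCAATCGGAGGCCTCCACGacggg
Hsp90b1 upstream match, chr10:86705633-86705661, minus strand: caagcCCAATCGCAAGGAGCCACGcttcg
Hsp90b1 downstream match, chr10:86705528-86705556, minus strand: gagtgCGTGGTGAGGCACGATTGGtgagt
Calr, chr8:84847070-84847098, minus strand: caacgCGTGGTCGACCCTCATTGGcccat
Canx, chr11:50325795-50325823, minus strand: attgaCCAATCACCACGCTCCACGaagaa
Pdia6, chr12:17266486-17266514, plus strand: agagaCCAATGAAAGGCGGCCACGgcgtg

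The Hspa5 match lay nearest to a start, 65 to 47 bases before it, and the upstream Hsp90b1 match lay farthest, at 212 to 194 bases. These starts are those of RefSeq. The span of Hspa5 given below is that of GENCODE and begins at 34771970, so the Hspa5 match lies inside that span. Hsp90b1 was alone in holding more than 1 match. The Calr match and the downstream Hsp90b1 match read as the reverse complement of the motif, and the other 4 read as written. The windows of Pdia3, Pdia4 and the 3 transcription factors had no match, which says only that these letters do not occur there. A second element, ERSE-II (ATTGGNCCACG), matched 0 of the 10 windows and 12 genes in all (0.0444%), and the XBP1-bound core TGACGTGG matched 0 of the 10 and 193 genes in all (0.714%). The CCAAT box alone, which is contained in every ERSE match, was found in 9 of the 10 and in 41.1% of genes. A match is a description of sequence, not evidence that a factor bound there.

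**Figure D1:**
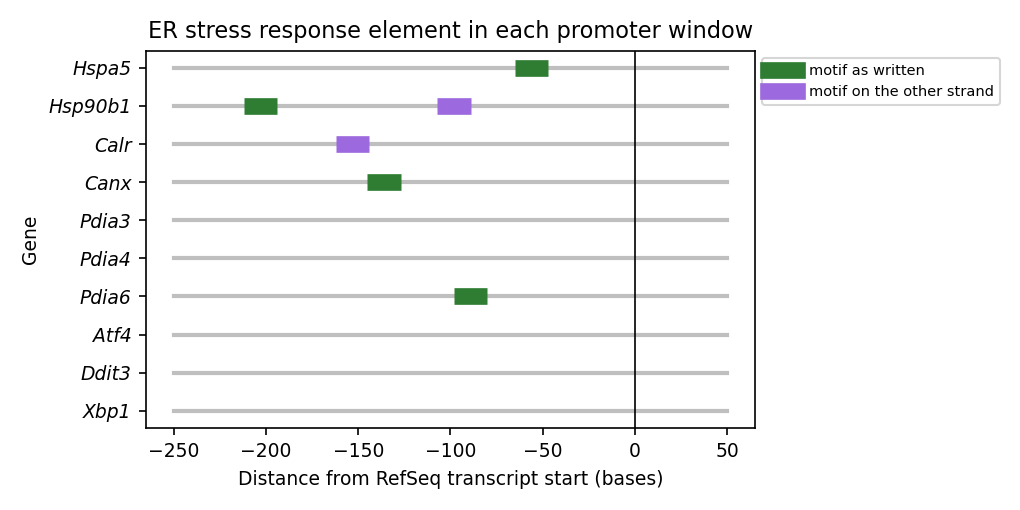
Position of ERSE matches in the promoter window of each of the 10 genes, as distance in bases from the RefSeq transcript start (black line). Green blocks read as written and purple blocks read on the other strand; 5 genes hold a match, Hsp90b1 holds both orientations, and all matches lie before the start.

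Levels are given as counts per 1000000 counts of a library in the 5878 tested genes (CPM), with these library sizes scaled by the trimmed mean of M-values (TMM). Total counts were between 305642 and 397150 per library, and the median gene that was tested had 19 to 25 counts, so single genes were measured from few reads. Tut1 itself had 6 and 11 counts in the WT libraries against 29 and 25 in the knockout-labelled ones, a log2 fold change of 1.71 ± 0.40 (SE), opposite to the labels (edgeR's quasi-likelihood test, Benjamini-Hochberg adjusted p = 0.0113). Counts summed over a gene do not resolve the loss of exon 2, so this count does not bear on whether the deletion took place, and the group is named by its label throughout. Xist, transcribed from the inactive X chromosome of females, had 64 counts in WT replicate 1 and 0 in the other 3 libraries, and the fold change of each gene without that library is given below. Across 5878 tested genes the edgeR test called 121 at an adjusted p below 0.05 (82 higher and 39 lower in the knockout-labelled libraries). The median log2 fold change of all tested genes was -0.01.

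None of the ER folding genes or stress transcription factors passed the test. Of the 10, 8 passed the filter on low counts, and 0 of these 8 were called by edgeR, against 2.06% of all tested genes. Limma-voom also called 0 of the 8, against 2.09% of all tested genes. DESeq2 called 0 of the 5 to which it gave an adjusted p, against 0.215% of all genes with one, and 0 of the 8 without its independent filter, against 0.153%, so its counts say little about single genes. At an unadjusted p below 0.05, 1 of the 8 passed, Atf4, against 14.2% of all tested genes. Fitted log2 fold changes were above 0 for 5 and below 0 for 3, with a median of 0.17, where 48.4% of all tested genes were above 0. The 2 genes that were not tested, Ddit3 and Xbp1, had the fewest reads among the transcription factors and are given below as counts.

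**Figure D2:**
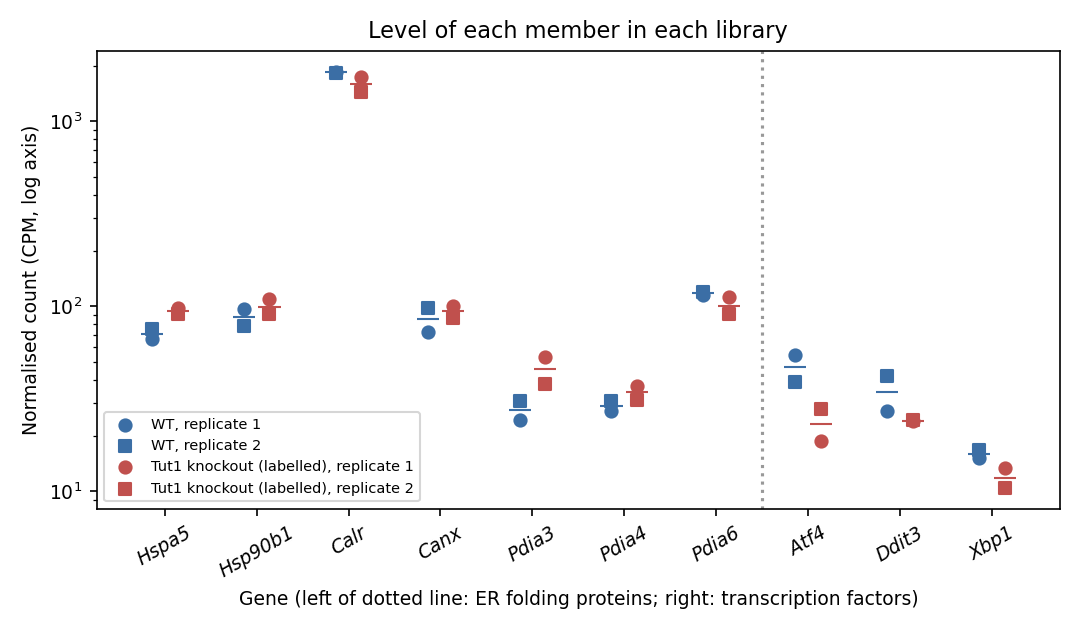
Level of each of the 10 genes in each library, as TMM-normalised CPM on a log axis; blue marks are WT and red marks are knockout-labelled libraries, circles replicate 1 and squares replicate 2, with a short line at the mean of each pair. Calr lies at 1441 to 1860 CPM, far above the other genes. Atf4, Ddit3 and Xbp1 lie lower in both knockout-labelled libraries than in both WT libraries, as did 20.8% of all tested genes, a share that does not cover the untested Ddit3 and Xbp1.

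Levels between genes were compared per length, as CPM divided by the kilobases of a protein-coding transcript and averaged over the 4 libraries. The transcript used was the longest of those that the annotation marks as principal, or the longest of all where none is marked. Calr was highest at 787 ± 87.3 CPM per kb (SD, n = 4), followed by Pdia6 at 50.2 ± 6.03, Hsp90b1 at 33.1 ± 4.55, Ddit3 at 33.0 ± 9.55, Hspa5 at 22.5 ± 3.89, Canx at 20.9 ± 2.98, Atf4 at 20.3 ± 8.97, Pdia3 at 13.2 ± 4.49, Pdia4 at 13.2 ± 1.72 and Xbp1 at 6.53 ± 1.28. The libraries of Calr did not overlap with those of Pdia6, nor those of Pdia6 with Hsp90b1, Ddit3 with Hspa5, or Pdia4 with Xbp1. For Ddit3 and Hspa5 the margin was small, with the lowest Ddit3 library at 26.87 and the highest Hspa5 library at 26.78 CPM per kb, so this pair is not clearly separated. The other neighbours in this order, Hsp90b1 and Ddit3 and then Hspa5 through Pdia4, overlapped in range and are not separated by these data. The order was not the same in both groups: Atf4 was at 27.1 CPM per kb in WT and 13.4 in the knockout-labelled libraries (means, n = 2), and Ddit3 (38.9) was above Hsp90b1 (31.0) in WT but under it in the knockout-labelled libraries (27.1 against 35.3). A long read can cover a transcript from end to end, so division by length may lower the rank of long transcripts such as Canx (4281 bases).

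HSPA5, also called BiP, is the ER member of the HSP70 family and keeps the stress sensors inactive while it is bound to them. Its gene (chr2:34771970-34777547, plus strand) had 22 and 27 counts in the WT libraries against 37 and 26 in the knockout-labelled ones. In normalised units these were 66.6 and 75.4 CPM against 98.3 and 90.3 CPM. Each knockout-labelled library exceeded each WT library in CPM, although the raw counts overlapped. The log2 fold change was 0.41 ± 0.31 (SE, 95% interval -0.21 to 1.03), with an adjusted p of 0.606 in the edgeR test. A rise of about 2-fold and a small fall both lie within this interval.

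HSP90B1, the ER member of the HSP90 family, completes the folding of a narrower set of clients such as integrins and Toll-like receptors. Hsp90b1 (chr10:86690209-86705509, minus strand) was measured at 96.9 and 78.2 CPM in WT and 109 and 90.3 CPM in the knockout-labelled libraries. The groups overlapped. Its log2 fold change of 0.20 ± 0.29 (SE, interval -0.39 to 0.79) had an adjusted p of 0.840 in the edgeR test. A gene on the opposite strand that overlaps it, 1810014B01Rik, had at most 2 counts in any library.

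Calreticulin is the soluble lectin chaperone of the ER lumen and also stores calcium there. Calr (chr8:84841850-84846934, minus strand) had 614 and 654 counts in WT against 656 and 415 in the knockout-labelled libraries, equal to 1860 and 1827 CPM against 1743 and 1441 CPM. Replicate 2 of the knockout-labelled libraries was the lowest, and the groups overlapped when libraries were scaled only by the total counts of the tested genes. The log2 fold change was -0.21 ± 0.12 (SE, interval -0.45 to 0.04, edgeR adjusted p = 0.468). This is the narrowest interval of the 8, and its bounds lie well inside a 2-fold change in either direction.

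Calr ranked 60 by mean CPM among the tested genes and supplied 77.1% to 82.2% of all counts of the 7 folding genes in a library. No overlapping gene was found for it, and 1 processed pseudogene of high identity, Calr-ps on chromosome 2 (92.5% identity over 485 bases), had no row in the table. Calnexin, the membrane-bound partner of calreticulin, was measured far lower. Canx (chr11:50293961-50325673, minus strand) had 72.7 and 97.8 CPM in WT and 101 and 86.8 CPM in the knockout-labelled libraries, with overlapping groups. Its log2 fold change of 0.14 ± 0.30 (SE, interval -0.46 to 0.74, edgeR adjusted p = 0.893) became -0.05 when WT replicate 1 was left out, so its sign rests on that library.

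Protein disulfide isomerases form and rearrange disulfide bonds, and PDIA3 does so for glycoproteins bound by calreticulin and calnexin. Pdia3 (chr2:121413775-121438687, plus strand) had 8 and 11 counts in WT against 20 and 11 in the knockout-labelled libraries, or 24.2 and 30.7 CPM against 53.1 and 38.2 CPM. In CPM the groups did not overlap, and knockout-labelled replicate 1 was the highest library. At 0.75 ± 0.44 on the log2 scale (SE, interval -0.14 to 1.63) it had the largest positive fold change of the 8, with an adjusted p of 0.477 in the edgeR test. PDIA4 and PDIA6 act on other clients, and PDIA6 also binds HSPA5 and IRE1.

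Pdia4 (chr6:47796141-47813430, minus strand) had 9 and 11 counts in WT against 14 and 9 in the knockout-labelled libraries, or 27.3 and 30.7 CPM against 37.2 and 31.3 CPM. The groups did not overlap in CPM, by a margin of less than 1 count in a library. Its log2 fold change was 0.25 ± 0.46 (SE, interval -0.69 to 1.18, edgeR adjusted p = 0.882). Pdia6 (chr12:17266545-17284770, plus strand) had 115 and 120 CPM in WT and 112 and 90.3 CPM in the knockout-labelled libraries. Both of the latter were lower, but the groups overlapped under the same scaling by totals. The log2 fold change was -0.21 ± 0.27 (SE, interval -0.76 to 0.35, edgeR adjusted p = 0.824).

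**Figure D3:**
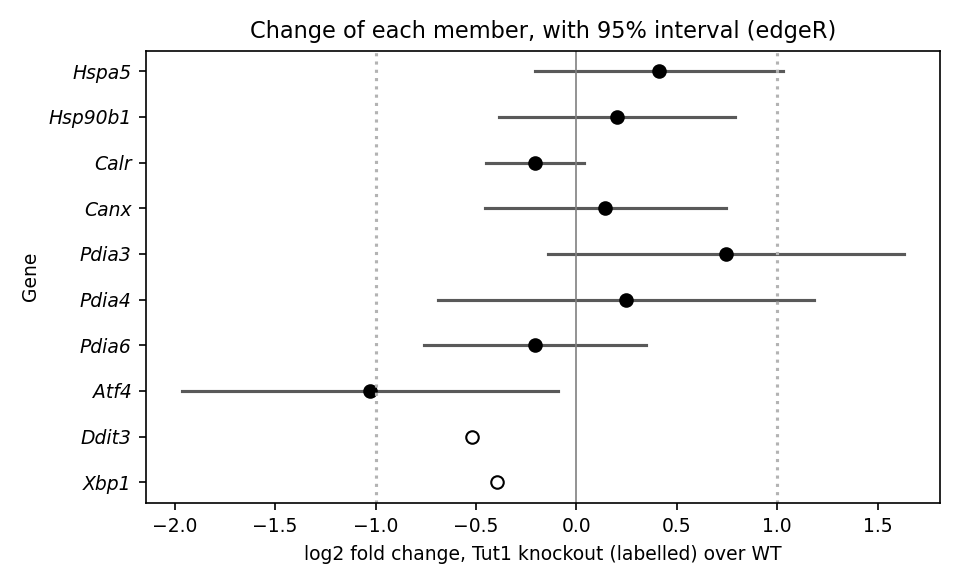
Log2 fold change of the knockout-labelled libraries over WT for each gene, with 95% intervals from the edgeR fit; dotted lines mark a 2-fold change. Intervals of 7 tested genes cross 0 and that of Atf4 does not before adjustment; open circles (Ddit3, Xbp1) are from a fit without the filter and carry no interval.

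As a group, the 7 folding genes had a median log2 fold change of 0.20, against -0.01 for all tested genes. The median was 0.33 when WT replicate 2 was left out, 0.05 and 0.32 when replicate 1 or 2 of the knockout-labelled libraries was, and 0.09 after thinning to the smallest library. Their summed level was 2263 and 2260 CPM in WT and 2254 and 1869 CPM in the knockout-labelled libraries, a log2 ratio of -0.13. Calr dominated that sum. Without it, in a sum added after the data were seen, the other 6 amounted to 403 and 433 CPM in WT and 510 and 427 CPM in the knockout-labelled libraries, a log2 ratio of 0.17 with overlapping groups. The direction of the sum therefore turns on whether Calr is included.

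The transcription factors were measured from few reads. All 3 had lower CPM in both knockout-labelled libraries than in both WT libraries, as did 20.8% of all tested genes. That share does not cover Ddit3 and Xbp1, which were not tested. In raw counts, WT replicate 1 and knockout-labelled replicate 1 tied for Ddit3 (9 and 9) and Xbp1 (5 and 5). Their separation in CPM therefore rests on library scaling. ATF4 is the effector of the integrated stress response and is regulated mainly in translation. Atf4 (chr15:80255184-80257541, plus strand) had 18 and 14 counts in WT against 7 and 8 in the knockout-labelled libraries, or 54.5 and 39.1 CPM against 18.6 and 27.8 CPM. The groups did not overlap, and WT replicate 1 was the highest. The log2 fold change was -1.03 ± 0.46 (SE, interval -1.96 to -0.09), with an unadjusted p of 0.0319 and an adjusted p of 0.286 in the edgeR test. Over all alternatives the log2 fold change ran from -1.31 to -0.74, and the adjusted p from 0.277 to 1.00. Without WT replicate 1 it was -0.79, with an unadjusted p of 0.207 by edgeR, and without replicate 1 of the knockout-labelled libraries it was -0.74, with an unadjusted p of 0.204.

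Ddit3 and Xbp1 failed the filter. Ddit3 (chr10:127290774-127296288, plus strand) had 9 and 15 counts in WT against 9 and 7 in the knockout-labelled libraries, or 27.3 and 41.9 CPM against 23.9 and 24.3 CPM. A fit without the filter gave it a log2 fold change of -0.52 ± 0.49 (SE, edgeR adjusted p = 0.862). It overlaps Mars on the opposite strand, which had 5 counts in WT replicate 1 and 6 in each other library, and whether counting used strand was not stated. Xbp1 (chr11:5520659-5525893, plus strand) had 5 and 6 counts in WT against 5 and 3 in the knockout-labelled libraries, a log2 fold change of -0.40 ± 0.69 (SE, edgeR adjusted p = 0.890) in the same fit. Each of their standard errors exceeds, or nearly equals, the change it belongs to, so neither gene was resolved at this depth.

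The 3 transcription factors together had 32 and 35 counts in WT against 21 and 18 in the knockout-labelled libraries. In CPM the sums were 96.9 and 97.8 against 55.8 and 62.5, a log2 ratio of -0.72. Atf4 contributed the widest gap between groups, and the sum is a description with no test. The median of the 3 fitted log2 fold changes was -0.52, where 2 of the values come from the fit without the filter. With all 3 genes taken from the fit without the filter it was also -0.52, and it ran there from -0.81 (without WT replicate 1) to -0.39 (without WT replicate 2) when 1 library was left out.

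Leaving out 1 library at a time moved many of these small fold changes by more than 1.5 times without any gene being called. Without WT replicate 1, the library with Xist counts, the log2 fold changes were 0.32 for Hspa5, 0.35 for Hsp90b1, -0.20 for Calr, -0.05 for Canx, 0.58 for Pdia3, 0.16 for Pdia4, -0.24 for Pdia6, -0.79 for Atf4, -0.82 for Ddit3 and -0.50 for Xbp1. Only Canx changed sign in any of the 4 fits. Over all 4, Hsp90b1 ran from 0.04 (without WT replicate 2) to 0.35 (without WT replicate 1), and it was 0.05 without knockout-labelled replicate 1 and 0.32 without replicate 2. Canx also ran up to 0.37 without WT replicate 2, and was 0.02 without knockout-labelled replicate 1 and 0.24 without replicate 2. Hspa5 stayed between 0.32 and 0.49. Without replicate 1 and without replicate 2 of the knockout-labelled libraries, respectively, Calr was at -0.35 and -0.08, Pdia6 at -0.38 and -0.08, Pdia3 at 0.46 and 0.94, and Pdia4 at 0.10 and 0.35. Ddit3 was at -0.24 without WT replicate 2, and Xbp1 at -0.60 without knockout-labelled replicate 1.

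Read by how far the groups were apart, 3 of the 8 tested genes had both knockout-labelled libraries above both WT libraries in CPM (Hspa5, Pdia3 and Pdia4), where 22.1% of all tested genes did so. Likewise 3 had both below (Calr, Pdia6 and Atf4), where 20.8% of all tested genes did so, and Hsp90b1 and Canx overlapped. For the intervals, 5 of the 8 had an upper bound under a 2-fold rise and 7 of the 8 a lower bound above a 2-fold fall. In the edgeR fit Hsp90b1, Calr, Canx and Pdia6 had both. That fit shares its estimate of spread across genes, with 37.5 prior against 2 residual degrees of freedom. DESeq2 gave similar fold changes with larger unadjusted p-values (0.682 for Hsp90b1, 0.769 for Canx and 0.622 for Pdia6). Its intervals would be wider and were not computed, so these bounds hold for edgeR alone. For the other 4 a 2-fold change in 1 direction lay within the interval, so a change of that size remains possible at this depth.

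The rest of the pathway was read from 6 lists of other genes, and 0 genes of any list were called by edgeR, DESeq2 or limma-voom. These tools called 2.06%, 0.215% and 2.09% of all genes they gave an adjusted p. The counts by direction and by unadjusted p that follow stand against 48.4% of all tested genes with a log2 fold change above 0 and 14.2% with an unadjusted p below 0.05. Among sensors and eIF2 phosphatase genes, 3 of 8 were tested and 0 had an unadjusted p below 0.05. The median log2 fold change was 0.12, and the gene with the smallest p was Mbtps1, the protease that cleaves ATF6, at 0.53 ± 0.39 (SE, edgeR adjusted p = 0.601). Among other ER folding proteins, 9 of 21 were tested, 3 with a fold change above 0 and 1 at an unadjusted p below 0.05, with a median of -0.02. Hyou1, an HSP110-type chaperone that exchanges nucleotide on HSPA5, had 17 and 29 counts in WT against 17 and 4 in the knockout-labelled libraries. In CPM both knockout-labelled libraries (45.2 and 13.9) lay under the WT libraries (51.5 and 81.0), replicate 2 being the lowest, and its log2 fold change was -1.08 ± 0.42 (SE, edgeR adjusted p = 0.202). Uggt1, which sends unfolded glycoproteins back to calnexin and calreticulin, was at 0.25 ± 0.31 (SE, edgeR adjusted p = 0.808).

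In ER-associated degradation, which exports misfolded proteins to the proteasome, 6 of 14 genes were tested, 1 had an unadjusted p below 0.05 and the median log2 fold change was -0.07. Erlec1, a lectin that delivers glycoproteins to this pathway, had 23 and 27 counts in WT against 14 and 13 in the knockout-labelled libraries, a log2 fold change of -0.83 ± 0.37 (SE, edgeR adjusted p = 0.274). Translocon and signal peptidase genes had 10 of 15 tested, 0 at an unadjusted p below 0.05 and a median of 0.00. Among genes of the integrated stress response and ATF4 targets, 23 of the 25 listed had a row and 11 were tested. Of these, 9 had a log2 fold change below 0 and 2 above, with a median of -0.19 and 1 at an unadjusted p below 0.05. That gene was Cebpg, a partner of ATF4 in dimers, with 180 and 160 counts in WT against 141 and 106 in the knockout-labelled libraries (log2 fold change -0.41 ± 0.17, SE, edgeR adjusted p = 0.242). Next by unadjusted p were Eif2ak1, a heme-regulated eIF2alpha kinase, at -0.74 ± 0.42 and Psat1, an enzyme of serine synthesis, at -0.49 ± 0.31 on the log2 scale (SE, edgeR adjusted p = 0.456 and 0.534). Slc3a2, which anchors amino acid transporters, was the list's highest at 0.40 ± 0.27 (SE, edgeR adjusted p = 0.557). Of the 11 listed cytosolic and mitochondrial chaperones, 10 had a row and 8 were tested. Among those tested, 4 had a fold change above 0 and 4 below, with 0 at an unadjusted p below 0.05 and a median of 0.01.

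**Figure D4:**
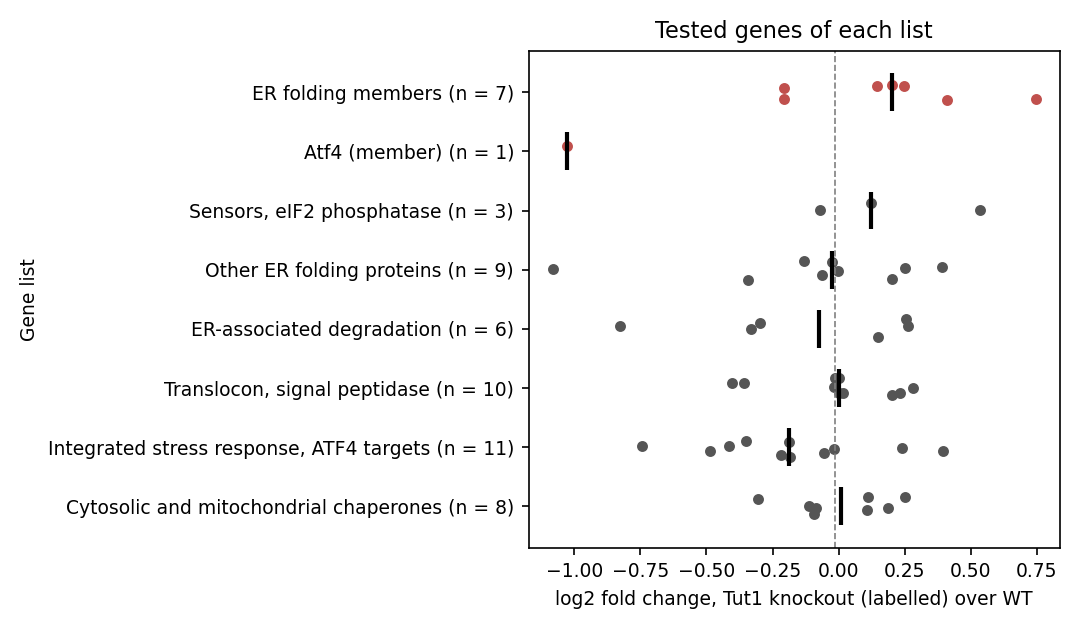
Log2 fold change of every tested gene of each list, with a vertical bar at the list's median and a dashed line at the median of all tested genes (-0.01). Red points are the 8 tested genes described here and grey points the other pathway genes; none was called.

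The genes that hold an ERSE match were also read as a set. Of the 37, 18 had a row, 8 were tested (5 of them described above), 0 were called by edgeR and 0 had an unadjusted p below 0.05, against 2.06% and 14.2% of all tested genes. Of the 8, 5 had a log2 fold change above 0 (48.4% of all tested genes did), and the median was 0.17. Of the 32 genes with a match other than the 5 described, 5 belong to the pathway lists (Creld2, Derl3, Dnajc3, Ero1lb and Syvn1), and none of these had more than 9 counts in any library.

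Markers of some other cell types differed between the groups in the edgeR test, which called 2.06% of all tested genes. All calls in this paragraph are by edgeR. DESeq2 called 0.215% of the genes to which it gave an adjusted p, and its results for the markers are not given. In bulk tissue, fewer cells of a type and less RNA per cell cannot be told apart. Of 7 tested neuron markers, 2 were called higher, Dcx (1.17 ± 0.24) and Mapt (1.83 ± 0.22 on the log2 scale, SE), and the summed level of all 9 was 1128 to 1163 CPM in WT and 1653 to 1866 CPM in the knockout-labelled libraries. All 3 tested microglia markers, Csf1r, Aif1 and Cx3cr1, were called higher, and the 6 markers had 31 and 34 counts in WT against 135 and 84. Mesenchyme markers had 1 of 5 called higher (Col1a2), with sums of 130 to 318 CPM in WT and 379 to 539 CPM, and endothelial markers 0 of 2, with sums of 90.9 to 101 CPM against 153 to 162 CPM. Erythroid markers had 1 of 5 called lower (Hbb-bh1), and their summed levels overlapped. Progenitor markers, which define the labelled tissue, had 0 of 6 called and summed to 1018 to 1070 CPM in WT and 986 to 1011 CPM, while all 6 proliferation genes had a log2 fold change below 0 and 2 were called lower, Mki67 (-0.74 ± 0.18, SE) and Cenpf. The most abundant markers were Pax6 (-0.14) and Nes (-0.04) for progenitors, Map2 (0.12) and Mapt for neurons, Col1a1 (1.00) and Col4a1 (0.70) for mesenchyme, Flt1 (0.49) and Pecam1 (0.76) for endothelium, Hba-a1 (0.24) and Hba-a2 (0.33) for erythroid cells, and Csf1r (1.39) and Aif1 (2.02) for microglia (log2 fold changes). Of these, Mapt, Csf1r and Aif1 were called. No marker with a row was at 0 in all libraries, and the mesenchyme marker Foxc1 had no row in the table. The part of these differences in the values of the ER genes was not tested.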

How the data were processed

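Poly(A)-enriched RNA of embryonic pallium was measured in 4 libraries, 2 in each group as the labels assign them. The deposited values are raw read counts per gene, which the authors made from Nanopore reads with minimap2 2.24, the transcripts of Ensembl 102 and FLAIR 2.0.0. How isoforms were summed, how multi-mapping reads were treated and whether strand was used is not stated. The table holds far fewer counts than the study gives as sequenced reads, for a reason not stated, so the low counts are those of the deposited table. Symbols, lengths and coordinates came from GENCODE M21 on GRCm38, which matched 16436 of 16449 identifiers. Promoter windows came from RefSeq GRCm38.p6.

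Counts were tested with edgeR 4.0.16 in R 4.3.3 (filterByExpr at its defaults of 10 for the count and 15 for its total, 5878 genes, TMM, glmQLFit and glmQLFTest, two-sided, no covariate), with Benjamini-Hochberg adjustment over all tested genes and a threshold of 0.05. The biological coefficient of variation was 10.5%. Standard errors (SE) were derived from each fold change and its F statistic, and 95% intervals use the t quantile at the total degrees of freedom. CPM values use library sizes summed over the tested genes and scaled by TMM. Totals per library were 361003 and 392579 (WT) and 397150 and 305642 (labelled knockout); intervals cover the spread between these libraries. Pseudogenes were searched at 90% identity or more over at least 50% of their length.

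Alternatives were other scalings and filters, limma-voom (limma 3.58.1), DESeq2 1.42.0 on the filtered genes, the bias-adjusted quasi-likelihood, leaving out each library, a block for the replicate number and thinning to the smallest library. Fits were tested on simulated counts. The genes described and all lists were chosen with earlier results of these data known. Named genes were the 10 genes, Tut1, in each other pathway list those called and then up to 4 by smallest unadjusted p, the 2 most abundant of each marker list, Mki67 and Dcx. Other genes named (Cx3cr1, Cenpf, Col1a2, Hbb-bh1, Xist, the overlapping genes and those with a promoter match) were named after their values were seen.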

Additional observations from a re-analysis of the deposited data

How the results depend on the processing

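No ER folding gene, transcription factor or gene of the other pathway lists was called under any alternative run. Of the single-gene values, 134 of 135 kept their direction, and none that had an adjusted p changed its side of the threshold. The 134 include values to which DESeq2 gave no adjusted p, which have no side to keep. The exception in direction was Canx, at -0.055 without WT replicate 1 and up to 0.37 with another library left out. The count of all genes called (121) was 8 with DESeq2, 9 with DESeq2 without its independent filter, 38 after thinning to the smallest library and 3 to 108 when 1 library was left out (75 without WT replicate 1, 3 without replicate 1 and 35 without replicate 2 of the knockout-labelled libraries); the cause was not tested for DESeq2, and the other settings use fewer reads. With the replicate number as a block it was 76, and 0 of the 10 genes were called. Same-numbered libraries did not deviate together (correlation of deviations -0.06, 2 pairs), a single comparison, and no label says that a number marks a shared litter or batch, so the libraries were treated as unpaired.

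The median log2 fold change of the 7 folding genes (0.20) was 0.086 after thinning and 0.048 to 0.33 with 1 library left out. Their summed log2 ratio (-0.13) ran from -0.28 to -0.0049 with 1 library left out and was 0.17 without Calr, an alternative chosen after seeing the data. Pdia4 did not pass the filter after thinning, and DESeq2 with its independent filter gave no adjusted p for Pdia3, Pdia4, Atf4, Ddit3 and Xbp1. Pdia3, Pdia4 and the transcription factors had 3 to 20 counts per library, which limits what could be detected for them.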
